A study of Mus musculus with 4 samples.

Results

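Wolframin and the genes of the unfolded protein response were measured in total RNA of 2 brain regions of old mice, the nucleus accumbens and the dorsal striatum. The set comprised 10 genes, all found by symbol among the 32531 gene rows, and all 10 passed the filter on low counts that left 14493 genes. Wfs1, which encodes wolframin, was chosen by its higher level in accumbens in these same libraries. Its regional difference is therefore given as a description, without a test. The other 9 genes, Ern1, Eif2ak3, Atf6, Xbp1, Atf4, Ddit3, Hspa5, Hsp90b1 and Dnajb9, were named for their function with earlier results of these libraries known. The question was whether these genes of the response to stress in the endoplasmic reticulum (ER) followed Wfs1 between the regions.

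The accumbens and the dorsal striatum were each represented by 2 libraries, from mice aged over 20 months of the Drd1-TRAP line CP73. All 4 libraries came from animals with the Drd1-EGFP/Rpl10a transgene, an EGFP-tagged ribosomal protein under control of Drd1. The sample type was Input, so the RNA came from the whole dissected tissue and not from tagged ribosomes alone. The labels do not say whether the 2 libraries of a region came from separate animals. The p-values then reflect the spread between libraries, which may be technical.

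Between 8478403 and 11849134 reads per library were assigned to genes. Replicates of a region differed by more than sampling noise (chi-square per degree of freedom 16.2 in accumbens, against 14.4 in dorsal striatum). Composition differed by region too. The row Rn45s held 5.61% and 5.94% of counts in accumbens, against 2.03% and 3.34% in dorsal striatum, and AK140265 9.29% and 10.3%, against 6.91% and 4.38%. Genes with a count numbered 16915 and 17417 in accumbens, against 19519 and 19532 in dorsal striatum. The part of composition in the fold changes was not tested. All 9 markers of spiny projection neurons, the principal neurons of both regions, were present, with summed levels of 5300 and 4280 CPM (counts scaled by library size with TMM factors) in accumbens, against 5917 and 6005 CPM in dorsal striatum. Of the 9, 4 were positive in fold change, and Rgs9 was the 1 that passed the test, lower in accumbens (log2 fold change −1.13, edgeR adjusted p = 0.0233).

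Proteins that are secreted or sit in membranes fold in the ER. When unfolded proteins accumulate there, 3 sensors in the ER membrane respond: IRE1, PERK and ATF6, encoded by Ern1, Eif2ak3 and Atf6. IRE1 splices the Xbp1 mRNA so that it encodes an active transcription factor. PERK phosphorylates the initiation factor eIF2 alpha, which lowers general translation while raising translation of Atf4, and ATF6 is cleaved to release a transcription factor. Their targets include the ER chaperones BiP, GRP94 and ERdj4, encoded by Hspa5, Hsp90b1 and Dnajb9, and the pro-apoptotic factor CHOP, encoded by Ddit3. Wolframin is an ER membrane protein whose loss causes Wolfram syndrome. It takes part in ER calcium handling and is known to restrain ATF6 signalling, and the gene is a marker of neurons in several forebrain areas, cortex, hippocampus and amygdala among them. Splicing, cleavage and phosphorylation were not measured here, and the counts of Xbp1 do not separate its spliced from its unspliced form.

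The promoters of Wfs1, Hspa5 and Hsp90b1 are shown because the first belongs to the gene with the regional difference and the others to the most abundant of the chaperones, which are classical targets of ATF6 and XBP1. Each window runs from 250 bases before to 50 bases after the start site in the RefSeq annotation of GRCm38.p6, 5′ to 3′ on the strand of the gene. Capitals mark matches to the ER stress response element, defined as CCAAT and CCACG with 9 bases between them, on either strand.
Wfs1 promoter, chr5:36988933-36989232, minus strand: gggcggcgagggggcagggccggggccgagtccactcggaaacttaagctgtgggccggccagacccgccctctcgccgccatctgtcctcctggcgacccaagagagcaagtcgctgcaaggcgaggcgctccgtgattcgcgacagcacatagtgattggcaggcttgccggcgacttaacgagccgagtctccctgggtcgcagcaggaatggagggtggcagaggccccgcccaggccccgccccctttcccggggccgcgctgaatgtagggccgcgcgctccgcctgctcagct
Hspa5 promoter, chr2:34771840-34772139, plus strand: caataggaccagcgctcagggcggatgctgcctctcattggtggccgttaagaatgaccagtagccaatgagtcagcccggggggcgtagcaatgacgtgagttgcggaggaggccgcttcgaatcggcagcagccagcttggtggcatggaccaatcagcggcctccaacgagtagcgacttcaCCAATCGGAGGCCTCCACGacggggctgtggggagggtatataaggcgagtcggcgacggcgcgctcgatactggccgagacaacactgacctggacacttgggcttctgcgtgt
Hsp90b1 promoter, chr10:86705395-86705694, minus strand: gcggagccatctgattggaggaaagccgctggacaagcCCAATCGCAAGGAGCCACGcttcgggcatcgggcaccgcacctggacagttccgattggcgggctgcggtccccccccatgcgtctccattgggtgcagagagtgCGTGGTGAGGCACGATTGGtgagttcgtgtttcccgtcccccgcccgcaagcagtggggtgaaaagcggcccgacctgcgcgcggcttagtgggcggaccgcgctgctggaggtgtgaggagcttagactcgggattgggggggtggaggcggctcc

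The element was present in 0.119% of 32851 promoter windows of the same length. The Hspa5 window held 1 match, beginning 65 bases before the start site, and the Hsp90b1 window held 2, beginning 212 and 107 bases before it, the second on the opposite strand. The windows of Wfs1, Ern1, Eif2ak3, Xbp1, Atf4, Ddit3 and Dnajb9 held no match. Start sites differ between annotations. In GENCODE M21 the 5′ end of Wfs1, at 36989205, lies inside its window near the upstream edge. That of Dnajb9, at 44210326, lies upstream of its whole window. For Hspa5 it is at 34771970, inside the window and upstream of the match. For Hsp90b1 it is at 86705509, inside the window and downstream of both matches. The distances given above therefore hold for the RefSeq start sites only. Sequence further upstream was not searched. Promoter windows were found for 9 of the 10 genes. A second form of the element (ATTGG and CCACG with 1 base between them, in 0.0365% of windows), the unfolded protein response element TGACGTGG (0.676%) and an ATF4 composite element (TGATG and AA with 1 base between them, 3.97%) were searched on both strands and matched none of the 9 windows. ATTGG is the reverse complement of CCAAT, so the first and second forms share that part. A match is a description of letters and no measure of binding.

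Wfs1 (chromosome 5, 36966104 to 36989205, minus strand) had the largest fold change of the 10 genes, the one it was chosen by. Its level was 571 and 474 CPM in accumbens, against 165 and 200 CPM in dorsal striatum. Both accumbens libraries lay far above both dorsal striatum libraries. The ratio of the means was 2.87, and the fitted log2 fold change was 1.52, with 1.35 to 1.66 under the 13 alternatives. These reuse the libraries by which Wfs1 was chosen, so the range is a description.

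**Figure D1:**
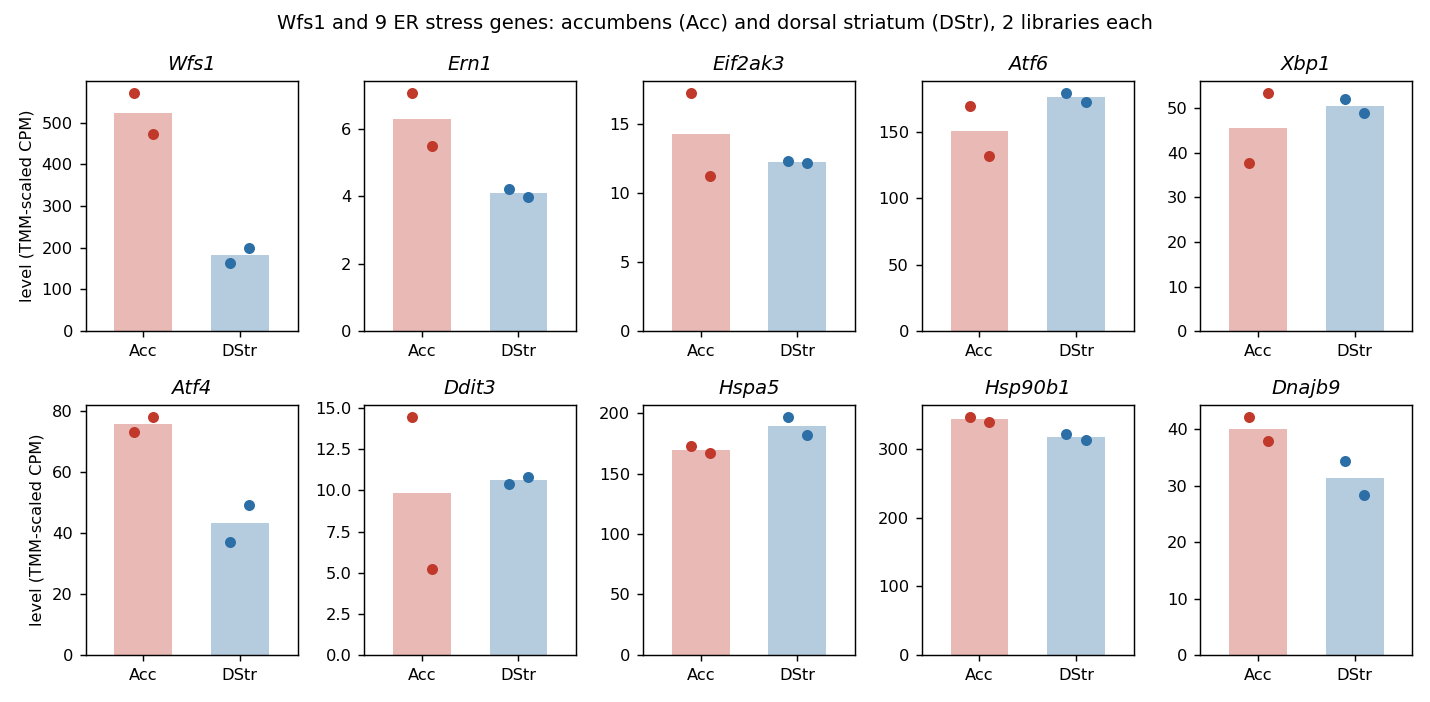
TMM-scaled CPM (y axis, each panel on its own scale from 0) of Wfs1 and the 9 ER stress genes in accumbens (Acc, red) and dorsal striatum (DStr, blue). Points are the 2 libraries of a region and bars their mean. The accumbens points stand at 571 and 474 CPM for Wfs1, against 165 and 200 CPM in dorsal striatum, while for Hspa5 and Hsp90b1 the regions lie close together.

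Wfs1 is also expressed in cortical neurons, whose markers differed between the regions in level, none past the threshold. Of 8 markers of cortical glutamatergic neurons, 7 were tested and 5 were positive in fold change. Their summed level was 294 and 166 CPM in accumbens, against 93.3 and 19.1 CPM in dorsal striatum, with Slc17a7 at 198 and 79.4 CPM in accumbens, against 32.3 and 0.717 CPM in dorsal striatum and Tbr1 at 30.5 and 30.1 CPM in accumbens, against 14.2 and 5.26 CPM in dorsal striatum. The sum was thus higher in both accumbens libraries, as Wfs1 was. Neurod6 was at 0 in dorsal striatum replicate 2, and Emx1 stayed under 1 CPM in all 4 libraries. The part of cortical tissue in the level of Wfs1 was not tested. In such bulk samples, more cells of a type and more RNA per cell cannot be told apart.

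None of the 9 ER stress genes passed the threshold between the regions (edgeR adjusted p under 0.05), where 1.28% of all tested genes did. Of the 9, 1 gene, Atf4, had an unadjusted p under 0.05, a level reached by 19.2% of all tested genes. The fold change was positive for 5 of the 9, with a median log2 fold change of 0.11, beside 51.4% positive and a median of 0.02 over all tested genes. The 2 libraries of one region lay apart from those of the other for 6 of the 9 genes, as they did for 51.2% of all tested genes. With DESeq2, where 11.2% of genes with an adjusted p were called, Atf4 was the 1 gene of the 7 members with such a p to pass. With limma-voom, where 2.97% were called, none of the 9 passed. Leaving out accumbens replicate 1 gave 2 calls among the 9, Atf4 higher and Ddit3 lower, with 18.2% of all genes called, and leaving out accumbens replicate 2 gave 1 call, Atf4, with 28.9% of all genes called. Those fits assume that the 1 remaining accumbens library varies as the dorsal striatum libraries do.

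**Figure D2:**
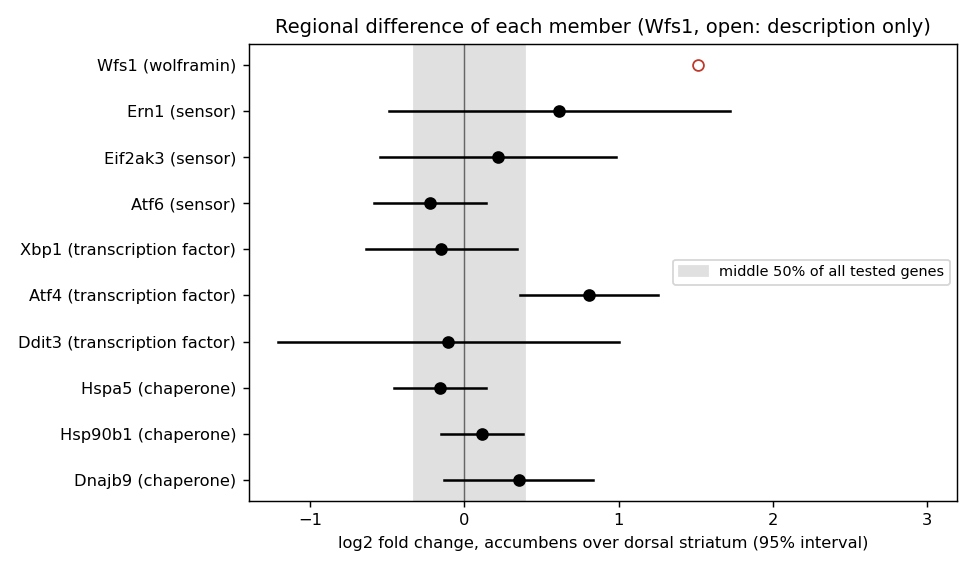
Fitted log2 fold change (x axis, accumbens over dorsal striatum) of the 10 genes, by role. Lines are 95% intervals from the edgeR fit, unadjusted for the number of genes, and the grey band holds the middle 50% of all tested genes. Wfs1, drawn open and without an interval, stands at 1.52, and the values of the other 9 genes lie between −0.22 and 0.81.

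Among the 3 sensors, no change passed the test. Ern1, the IRE1 gene (chromosome 11, 106394650 to 106487852), had the lowest level per kilobase of the 10 genes and stood at 7.06 and 5.50 CPM in accumbens, against 4.2 and 3.99 CPM in dorsal striatum. These levels rested on 57 and 44 counts in accumbens, against 40 and 50 counts in dorsal striatum. The accumbens libraries were the higher ones, but the 95% interval of the fold ran from 0.711 to 3.31 (log2 fold change 0.62, SE 0.48, edgeR adjusted p = 0.537). The interval was the widest of the 3 sensors and included both no difference and a ratio of 2.87, the value at which Wfs1 stood.

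Eif2ak3, the PERK gene (chromosome 6, 70844515 to 70905245), stood at 17.2 and 11.3 CPM in accumbens, against 12.3 and 12.2 CPM in dorsal striatum. The second accumbens library was below both dorsal striatum libraries and the first above them, so the groups overlapped (log2 fold change 0.22, SE 0.33, edgeR adjusted p = 0.783). Atf6 (chromosome 1, 170704674 to 170867771) had the highest level per kilobase of the sensors and stood at 169 and 131 CPM in accumbens, against 179 and 172 CPM in dorsal striatum. Both accumbens libraries were the lower ones, with replicate 2 further down, and the fold of 0.856 had an interval from 0.666 to 1.10 (edgeR adjusted p = 0.488).

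None of the 3 transcription factors downstream of the sensors passed the test. Xbp1 (chromosome 11, 5520659 to 5525893) was at 37.7 and 53.4 CPM in accumbens, against 52.1 and 48.9 CPM in dorsal striatum. Accumbens replicate 1 was the lowest of the 4 libraries and accumbens replicate 2 the highest (log2 fold change −0.15, SE 0.21, edgeR adjusted p = 0.765, fold interval 0.642 to 1.27). Without accumbens replicate 1 its log2 fold change was 0.08, and without accumbens replicate 2 it was −0.43.

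Atf4 (chromosome 15, 80255184 to 80257541), which drives genes of amino acid supply and redox balance, had the largest log2 fold change of the 9. It was at 73.2 and 78.1 CPM in accumbens, against 37.0 and 49.3 CPM in dorsal striatum, from 352 or more counts in each library. Both accumbens libraries were above both dorsal striatum libraries, and the 2 accumbens values were close together. The ratio of the means was 1.75 (log2 fold change 0.81, SE 0.19). It missed the threshold (edgeR adjusted p = 0.0832), although its unadjusted fold interval ran from 1.29 to 2.39. The call depended on the setting: Atf4 passed in 5 of 13 alternatives, DESeq2 among them (adjusted p = 0.0109), and the adjusted p ranged from 0.00317 to 0.793. Its log2 fold change was 0.60 without dorsal striatum replicate 1 and 1.03 without dorsal striatum replicate 2. Fold changes also varied with transcript composition over all genes: the GC decile that holds Atf4 had a median log2 fold change of 0.14 and its length decile 0.09, and the GC decile that holds Wfs1 had 0.22. The part of GC content and length in these values was not tested.

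Ddit3, the CHOP gene (chromosome 10, 127290774 to 127296288), showed no common direction. Its level was 14.5 and 5.25 CPM in accumbens, against 10.4 and 10.8 CPM in dorsal striatum, from 117 and 42 counts in accumbens, against 99 and 136 counts in dorsal striatum. The accumbens libraries were the highest and the lowest of the 4, 2.76-fold apart, and their 95% Poisson intervals (12 to 17.4 CPM and 3.78 to 7.10 CPM, counting error only) did not meet. The fitted log2 fold change came to −0.11 (SE 0.48, edgeR adjusted p = 0.938), −1.02 without accumbens replicate 1 (edgeR adjusted p = 0.0347) and 0.44 without accumbens replicate 2. Per 100 Atf4 counts there were 19.8 and 6.72 Ddit3 counts in accumbens, against 28.1 and 22.0 in dorsal striatum. Ddit3 was thus lower relative to Atf4 in both accumbens libraries than in both dorsal striatum libraries. The exons of Ddit3 overlap those of Mars, a methionyl-tRNA synthetase gene on the opposite strand, which had 302 and 153 counts in accumbens, against 320 and 324 counts in dorsal striatum. Mars was thus also low in accumbens replicate 2, and because the strand setting of the counting is not given, reads from the shared stretch cannot be assigned to either gene.

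None of the 3 chaperones passed the test. Hspa5, the BiP gene (chromosome 2, 34771970 to 34777547), whose product holds the sensors inactive in unstressed cells, was at 173 and 167 CPM in accumbens, against 197 and 182 CPM in dorsal striatum. Both accumbens values were slightly lower, a fold of 0.897 with an interval from 0.729 to 1.10 (edgeR adjusted p = 0.562). Hsp90b1, the GRP94 gene (chromosome 10, 86690209 to 86705509), went slightly the other way, at 347 and 339 CPM in accumbens, against 322 and 313 CPM in dorsal striatum. Its fold of 1.08 had an interval from 0.898 to 1.30 (edgeR adjusted p = 0.657), and with library size alone as the scaling its log2 fold change turned to −0.06. Its exons overlap those of 1810014B01Rik on the opposite strand, which had 38 and 24 counts in accumbens, against 43 and 43 counts in dorsal striatum. Dnajb9, the ERdj4 gene (chromosome 12, 44205559 to 44210326), which is induced by spliced Xbp1, was at 42.2 and 37.9 CPM in accumbens, against 34.5 and 28.4 CPM in dorsal striatum. Both accumbens libraries were the higher ones (log2 fold change 0.35, SE 0.21, edgeR adjusted p = 0.406, fold interval 0.914 to 1.78). Summed over the 3 chaperones, the level was 562 and 544 CPM in accumbens, against 554 and 523 CPM in dorsal striatum, so the groups overlapped.

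Ratios within a library do not depend on the scaling between libraries. Per 100 Wfs1 counts there were 30.3 and 35.3 Hspa5 counts in accumbens, against 119.9 and 90.8 in dorsal striatum. For Hsp90b1 these were 60.8 and 71.5 in accumbens, against 195.6 and 156 in dorsal striatum. The ratio was thus lower in both accumbens libraries, and it was so for each of the 9 genes. The gap was smallest for Atf4, with 12.8 and 16.5 counts per 100 Wfs1 counts in accumbens, against 22.5 and 24.6 in dorsal striatum. These ratios carry the difference for which Wfs1 was chosen and are a description.

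**Figure D3:**
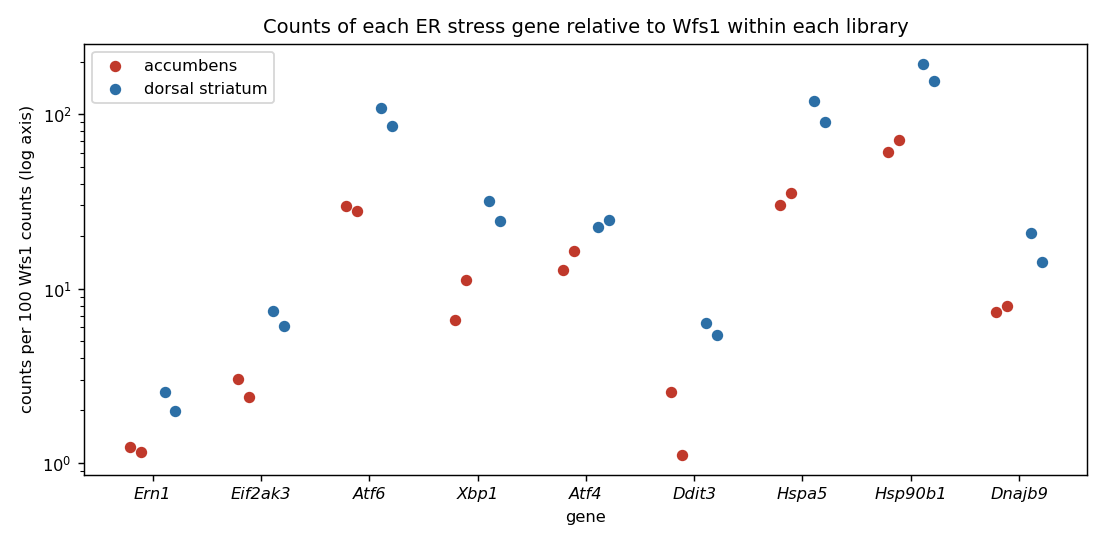
Counts of each ER stress gene per 100 Wfs1 counts in the same library (y axis, log scale), for accumbens (red) and dorsal striatum (blue). Each point is 1 library. All accumbens points lie below the dorsal striatum points of the same gene, closest for Atf4 (16.5 against 22.5).

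Levels per kilobase of transcript ranked the genes in each region. In accumbens Wfs1 was the highest, at 151 and 125 CPM per kilobase, above Hsp90b1 at 123 and 120 CPM per kilobase by less than its own libraries differed. Hspa5 (46.3 ± 1.11 CPM per kilobase) and Atf4 (43.9 ± 2.02) followed, then Xbp1 (21.4 ± 5.22) and Atf6 (20.8 ± 3.72), whose libraries overlapped, and Dnajb9 (16.3 ± 1.25) and Ddit3 (11.1 ± 7.34), which overlapped too (mean ± SD, n = 2). The sensor genes Eif2ak3 (3.15 ± 0.935) and Ern1 (0.904 ± 0.159) were the lowest. In dorsal striatum Hsp90b1 was the highest, at 112 ± 2.31 CPM per kilobase, and Wfs1 (48.1 ± 6.63) overlapped Hspa5 (51.6 ± 3.01). Atf4 (25 ± 5.03), Atf6 (24.3 ± 0.654) and Xbp1 (23.7 ± 1.09) overlapped there, as did Dnajb9 (12.8 ± 1.75) and Ddit3 (11.9 ± 0.346), above Eif2ak3 (2.71 ± 0.0158) and Ern1 (0.589 ± 0.0222). With the merged exons of each gene as its length, Hsp90b1 was at 85.1 and Dnajb9 at 15.7 CPM per kilobase in accumbens, which placed Dnajb9 above Xbp1 (14.0).

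**Figure D4:**
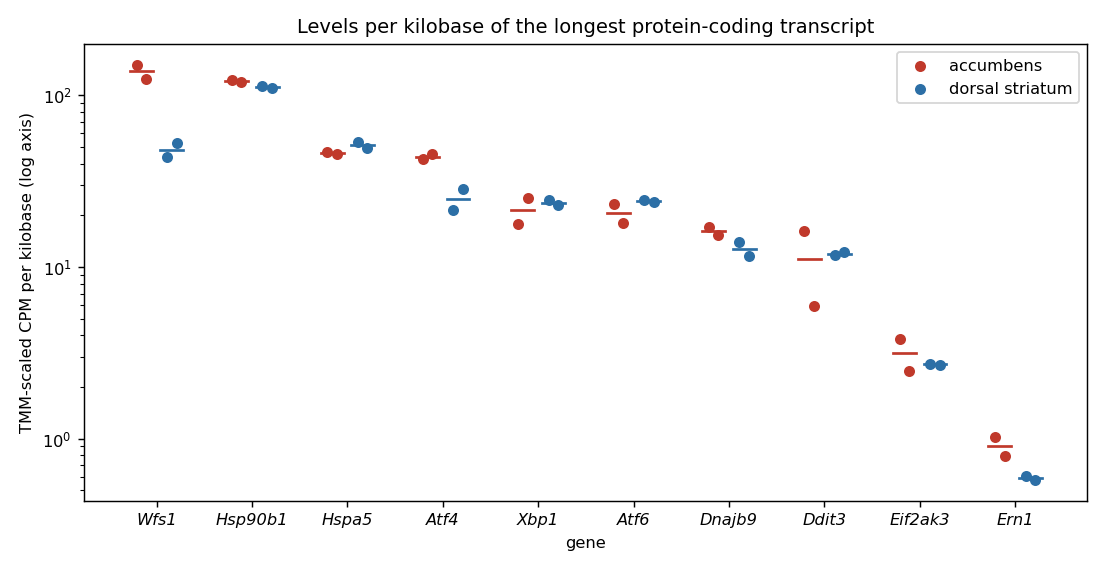
Level per kilobase of the longest protein-coding transcript (y axis, log scale) of the 10 genes, ordered by their mean in accumbens. Points are single libraries and dashes the mean of a region, accumbens in red and dorsal striatum in blue. Wfs1 stands at 151 and 125 CPM per kilobase in accumbens, against 43.5 and 52.8 in dorsal striatum, whereas the order of most other genes is similar in both regions.

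Further genes of the same pathways came from 8 lists of 109 genes, of which 97 were tested. None passed the threshold in edgeR, 20 had an unadjusted p under 0.05 (20.6%, beside 19.2% of all tested genes), and 45 had a positive fold change. Their median log2 fold change was −0.06. DESeq2 called 5 of the 68 with an adjusted p, beside 11.2% of all genes with such a p. Of these 5, Eif2b2 and Syvn1 were higher and Itpr1, Mbtps1 and Sec62 lower in accumbens. With limma-voom 3 of 97 were called (Itpr1, Mbtps1 and Sec62, lower), beside 2.97% of all tested genes. Without accumbens replicate 1, 14 of 103 passed, 6 higher and 8 lower in accumbens, where 18.2% of all genes were called. Without accumbens replicate 2, 28 of 104 passed, 12 higher and 16 lower, where 28.9% of all genes were called. No gene of the 97 had a log2 fold change as high as that of Wfs1, which was chosen for its high value and which 286 of all 14493 tested genes, itself included, reached or passed.

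**Figure D5:**
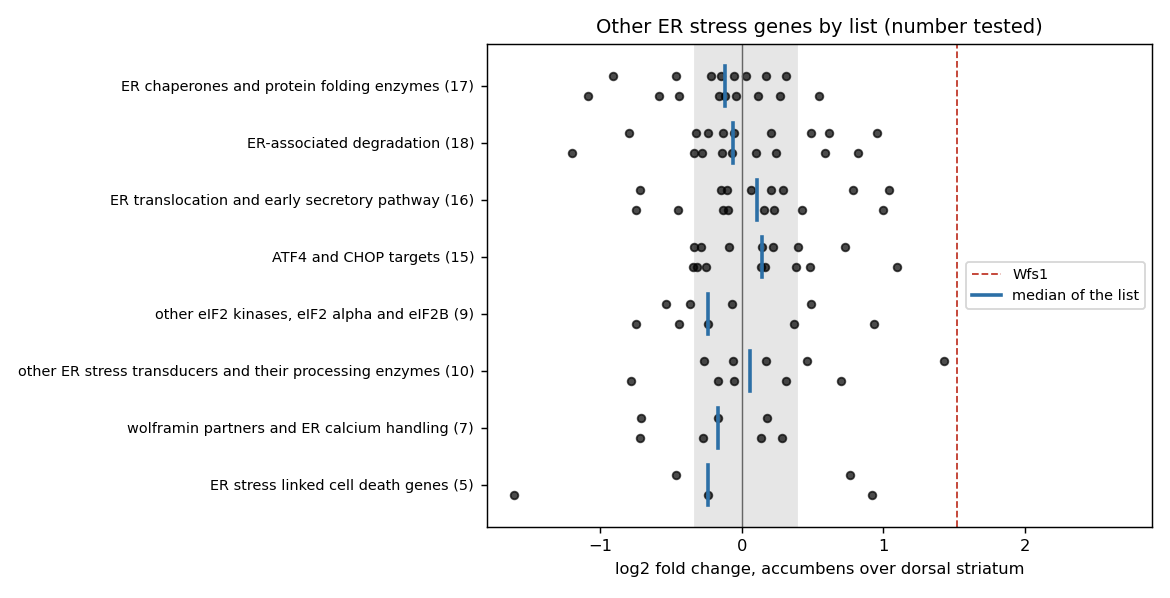
Log2 fold change (x axis, accumbens over dorsal striatum) of the 97 tested genes in 8 lists, 1 point per gene, with the median of each list as a blue dash. The grey band holds the middle 50% of all tested genes, and the dashed red line marks Wfs1 at 1.52. The list medians lie between −0.24 and 0.14. All points lie to the left of the Wfs1 line, as do all but 286 of the 14493 tested genes.

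Of 17 ER chaperones and folding enzymes, 6 were positive in fold change, with a median on the log2 scale of −0.12. Calnexin (Canx), which retains immature glycoproteins, was at 270 and 258 CPM in accumbens, against 213 and 226 CPM in dorsal striatum (edgeR adjusted p = 0.280). Calreticulin (Calr) was at 159 and 89.3 CPM in accumbens, against 83.3 and 86.7 CPM in dorsal striatum (edgeR adjusted p = 0.278). In that gene 1 library, accumbens replicate 1, stood above the other 3. Of 18 tested genes of ER-associated degradation, which removes misfolded proteins from the ER, 8 were positive in fold change, with a median of −0.06. Sel1l, the adaptor of the HRD1 ubiquitin ligase, was at 190 and 176 CPM in accumbens, against 214 and 188 CPM in dorsal striatum (edgeR adjusted p = 0.651), and Vcp, the extraction ATPase, at 169 and 150 CPM in accumbens, against 189 and 211 CPM in dorsal striatum (edgeR adjusted p = 0.251). Syvn1, which encodes HRD1, the ligase reported to degrade ATF6 together with wolframin, was picked out after its values were seen. It was at 46.6 and 69.9 CPM in accumbens, against 31.2 and 29.0 CPM in dorsal striatum, non-overlapping and short of the threshold (log2 fold change 0.95, SE 0.23, edgeR adjusted p = 0.0861).

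Among 15 tested targets of ATF4 and CHOP, 9 were positive in fold change, with a median on the log2 scale of 0.14. Psat1, an enzyme of serine synthesis, was at 135 and 109 CPM in accumbens, against 138 and 122 CPM in dorsal striatum, and Vldlr, a lipoprotein receptor, at 145 and 147 CPM in accumbens, against 129 and 136 CPM in dorsal striatum (edgeR adjusted p = 0.819 and 0.607). The regions overlapped for Psat1 and lay close together for Vldlr. Of the 22 listed genes, 7 did not pass the low-count filter: Trib3, Atf3, Cebpb, Nupr1, Stc2, Eif4ebp1 and Gdf15. None of these exceeded 2.48 CPM in any library. Of 9 other eIF2 kinases and eIF2 or eIF2B subunits, 3 had a positive fold change, with a median of −0.24. Eif2ak1, the haem-regulated eIF2 kinase gene, was at 69.6 and 62.0 CPM in accumbens, against 96.3 and 94.7 CPM in dorsal striatum (edgeR adjusted p = 0.125), and Eif2s1, the eIF2 alpha gene, at 47.0 and 46.4 CPM in accumbens, against 56.7 and 53.2 CPM in dorsal striatum (edgeR adjusted p = 0.509). Both were lower in both accumbens libraries.

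Of 10 tested further transducers and processing enzymes, 5 had a positive fold change, with a median of 0.06. Mbtps1, the site-1 protease that makes the first cut in ATF6, was at 51.3 and 51.3 CPM in accumbens, against 87.4 and 88.8 CPM in dorsal striatum. The replicates were nearly identical within each region, and the log2 fold change of −0.78 (SE 0.16) missed the threshold (edgeR adjusted p = 0.0587). It passed, lower in accumbens, in 9 of 13 alternatives. DESeq2 and limma-voom were among them, and called 11.2% and 2.97% of all genes with an adjusted p. Tmbim6, an ER membrane protein that protects from cell death, was at 258 and 235 CPM in accumbens, against 196 and 200 CPM in dorsal striatum (edgeR adjusted p = 0.227).

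Of 7 wolframin partners and ER calcium genes, 3 had a positive fold change, with a median of −0.17. The groups were apart for all 7, beside the 51.2% of all tested genes. Itpr1, the inositol trisphosphate receptor that releases calcium from the ER, was at 985 and 749 CPM in accumbens, against 1342 and 1496 CPM in dorsal striatum. Both accumbens libraries were lower, and the log2 fold change of −0.71 (SE 0.15) missed the threshold (edgeR adjusted p = 0.0624). Itpr1 passed in 10 of 13 alternatives, among them DESeq2 and limma-voom, where 11.2% and 2.97% of all genes with an adjusted p were called. Atp2a2, the calcium pump that fills the ER, was at 1063 and 906 CPM in accumbens, against 1118 and 1096 CPM in dorsal striatum (edgeR adjusted p = 0.487).

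The 16 tested genes of ER translocation and early secretion had a median of 0.11, with 9 positive. Ssr1, a subunit of the translocon-associated complex, was at 209 and 189 CPM in accumbens, against 218 and 207 CPM in dorsal striatum (edgeR adjusted p = 0.754), and Sec31a, a coat protein of ER exit vesicles, at 212 and 162 CPM in accumbens, against 152 and 168 CPM in dorsal striatum (edgeR adjusted p = 0.5). For both genes the regions overlapped. Of 5 tested cell death genes, 2 had a positive fold change, with a median of −0.24. Bcl2, which protects from apoptosis, was at 35.9 and 57.4 CPM in accumbens, against 55.7 and 54.4 CPM in dorsal striatum, and Bak1, which promotes it, at 9.79 and 8.5 CPM in accumbens, against 4.2 and 5.42 CPM in dorsal striatum (edgeR adjusted p = 0.641 and 0.276). Casp12 had no count in either accumbens library and stood at 0.105 and 0.0797 CPM in dorsal striatum.

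Summed markers of astrocytes overlapped between the regions (521 and 458 CPM in accumbens, against 492 and 356 CPM in dorsal striatum), with 1 call, Gja1, higher in accumbens. Those of oligodendrocytes did not overlap (2056 and 2417 CPM in accumbens, against 1991 and 1372 CPM in dorsal striatum). Nor did those of microglia (61.4 and 65.8 CPM in accumbens, against 51.9 and 39.2 CPM in dorsal striatum) or of vessels and choroid plexus (41.6 and 19 CPM in accumbens, against 15.8 and 9.09 CPM in dorsal striatum). No gene of these 3 lists passed. Gene by gene, the groups were apart for 1 of 6 oligodendrocyte, 4 of 6 microglia and 2 of 3 tested vascular and choroid plexus markers, beside 51.2% of all tested genes. In the last list Flt1 overlapped (30.0 and 7.13 CPM in accumbens, against 9.67 and 2.87 CPM in dorsal striatum), and Pecam1 was lower in both accumbens libraries. Immediate early genes, which respond to activity and to handling of tissue, summed to 1041 and 624 CPM in accumbens, against 571 and 693 CPM in dorsal striatum, with no call among 7. Of the 7, 6 were positive in fold change, with a median on the log2 scale of 0.73. An unadjusted edgeR p under 0.05 was reached by 4 of the 7, beside 19.2% of all tested genes. The groups were apart for 4 of the 7, beside 51.2% of all tested genes. Egr1 was at 596 and 369 CPM in accumbens, against 391.8 and 441.1 CPM in dorsal striatum, and Nr4a1 at 128 and 77.4 CPM in accumbens, against 51.3 and 72.6 CPM in dorsal striatum. Accumbens replicate 1, which had the highest Ddit3, also had the highest sum of these genes. Cytosolic heat shock genes summed to 2288 and 2336 CPM in accumbens, against 2470 and 2483 CPM in dorsal striatum, with no call among 5 tested. Hspa8 was at 1038 and 1076 CPM in accumbens, against 1084 and 1081 CPM in dorsal striatum, and Hsp90aa1 at 568 and 703 CPM in accumbens, against 731 and 713 CPM in dorsal striatum. The part of these cells and states in the values of the 10 genes was not tested.

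The genes whose profile over the 4 libraries was most like that of Wfs1 were none of the 9. Likeness was the root mean square distance between centred log2 CPM profiles, among 8704 genes with a mean of at least 10 CPM, and smaller means more alike. Genes with names of the form Gm or LOC and digits, or ending in Rik, were passed over and are not among the 8704. The Wfs1 profile carries the regional difference for which Wfs1 was chosen, so the distances largely restate the fold changes. The ranking is a description. The nearest were Cox8a (0.0766), the somatostatin gene Sst (0.0840), Cpne6 (0.0874), the serotonin receptor gene Htr2c (0.0900), Cbfa2t3 (0.0947) and the neuropeptide Y gene Npy (0.101). The log2 fold changes of these 6 lay between 1.41 (Cbfa2t3) and 1.66 (Htr2c). Sst was at 194 and 143 CPM in accumbens, against 53.5 and 58.4 CPM in dorsal striatum, and Htr2c at 211 and 179 CPM in accumbens, against 59.1 and 64.0 CPM in dorsal striatum. Atf4 was at a distance of 0.375, rank 348 of 8704, and was the nearest of the 9. Dnajb9 ranked 1934, Eif2ak3 2818 and Hsp90b1 3260. Ern1, at 7.06 CPM or less in every library, was under the minimum mean and could not be among the nearest. Its distance would place it at 903 against the 8704 genes. Hspa5 (5449), Atf6 (5951), Xbp1 (6124) and Ddit3 (7120) were in the more distant part of the ranking. With a minimum of 1 CPM in place of 10, only Cox8a of the 6 was again among the 6 nearest.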

How the data were processed

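The 4 input libraries of total RNA, 2 of accumbens and 2 of dorsal striatum, were grouped by the tissue in their titles. Each deposited file holds raw, unnormalized read counts by gene symbol for a library. STAR 2.0.0e, HTSeq and the mm10 build are named in the submitters' processing notes. Neither the annotation nor the strand setting is stated in the sources used here.

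Rows that name no gene (reads in no feature, 27.5% to 35.4% of all reads in a file, ambiguous 6.06% to 9.46%, with several alignments 6.98% to 10.2%) stayed out of library sizes and tests. TMM scaling and the quasi-likelihood F test came from edgeR 4.0.16 (defaults, filterByExpr, region as the only term) under R 4.3.3. The test was two-sided, with Benjamini-Hochberg adjustment over all 14493 tested genes and a threshold of 0.05. Every adjusted p is from that fit unless DESeq2 1.42.0 or limma-voom (limma 3.58.1) is named. SE is the absolute log2 fold change over the square root of F. Intervals are 95% and unadjusted, and Poisson intervals cover counting error only. Likeness used log2 of CPM plus 0.5. Lengths, GC content, coordinates and overlaps came from GENCODE M21 (GRCm38, the assembly of mm10), with a length for 85.7% of tested genes, and promoters from RefSeq (GRCm38.p6).

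The members, the lists and the alternatives were chosen with earlier results of these data known. Named genes are the 10 members, from each list up to 4 genes past the threshold or else the 2 with the highest mean CPM, and the 6 genes most like Wfs1. Marker genes named without calls, genes that missed the low-count filter, Syvn1, Eif2b2, Sec62, Shmt2, Mars, 1810014B01Rik, Rn45s and AK140265 were named outside this rule after their values were seen. Alternatives were other scalings, no filter, DESeq2, limma-voom, a replicate block, the 50 most abundant genes left out and each library left out, and, added after seeing the data, edgeR with legacy=FALSE and all settings of the count of other ER stress genes.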

Additional observations from a re-analysis of the deposited data

How the results depend on the processing

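The direction of Ern1, Atf6, Atf4, Hspa5 and Dnajb9 was the same under all 13 alternatives. For each of them the regions did not overlap, so a library left out could hardly turn the sign. The sign turned for Hsp90b1 with library size alone (−0.059, a scaling that moved the median of all genes to −0.15), and with a library left out for Eif2ak3 (−0.124 to 0.489), Xbp1 (−0.425 to 0.079) and Ddit3 (−1.018 to 0.44), where the low value of Eif2ak3 and Ddit3 and the high value of Xbp1 came without accumbens replicate 1 and the other end without accumbens replicate 2. The count of 186 genes past the threshold was 1203 with no low-count filter, 933 with DESeq2, 431 with limma-voom, 371 with legacy=FALSE, 843 with the replicate block, and 109 to 4464 with a library left out (2789 without accumbens replicate 1, 4464 without accumbens replicate 2, 109 without dorsal striatum replicate 1). Among the 9 ER stress genes the count of 0 became 1 (Atf4) with no filter, DESeq2 or the replicate block, and 0 to 2 with a library left out. Among the other ER stress genes the count of 0 became 2 with upper-quartile scaling, 3 with library size alone, limma-voom or legacy=FALSE, 8 with no filter, 5 with DESeq2, 6 with the replicate block and 0 to 28 with a library left out (14 without accumbens replicate 1, 28 without accumbens replicate 2, 1 without dorsal striatum replicate 1). The share called over all tested genes was 1.31% with upper-quartile scaling, 1.68% with library size alone and 2.56% with legacy=FALSE. It was 5.68% with no filter and 5.82% with the replicate block, settings in which Atf4 passed. The other ER stress genes tested numbered 109 with no filter and 97 in the rest of these settings. The split of all calls was 77.4% higher in accumbens, against 67.4% with upper-quartile scaling, 29.5% with library size alone, 63.8% with no filter, 64.4% with DESeq2 and 65.4% with the replicate block. The cause of these shifts was not tested.

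Nothing says that replicate numbers pair the samples. The correlation of same-numbered deviations across genes was 0.0318, and with the replicate block Atf4 had a log2 fold change of 0.82 (edgeR adjusted p = 0.0132). Ern1, Eif2ak3 and Ddit3 rested on 40 to 153 counts per library, and for Eif2ak3 (14.5 to 20.3 and 9.05 to 13.8 CPM) and Ddit3 the Poisson intervals of the 2 accumbens libraries did not meet, so their spread exceeded counting error.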
